A study of Mus musculus with 6 samples.

Results

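The enzymes described here handle glucose 6-phosphate and glycogen. The 9 genes, taken by their symbols and NCBI Gene identifiers from the 27179 genes in the count tables, were G6pc3, Slc37a4, Pgm1, Pgm2, Ugp2, Gys1, Gbe1, Pygl and Pygb. Of these, 8 passed the filter on low counts, as did 14069 of all genes, and Pygl did not. The symbol Pgm2 has also been used for the gene now called Pgm1, so both symbols are used here as RefSeq gives them for the identifiers. The study chose G6pc3 and Pgm1, the latter under its older symbol, on these same libraries, so their direction here is not independent evidence.

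Glucose enters a cell's metabolism as glucose 6-phosphate, which can go down glycolysis, be turned back into glucose, or be stored. For storage, phosphoglucomutase moves the phosphate to form glucose 1-phosphate, UDP-glucose pyrophosphorylase activates it to UDP-glucose, glycogen synthase adds the glucose to a growing chain, and the branching enzyme makes the branch points. Glycogen phosphorylase releases glucose 1-phosphate from the chains again, and liver, muscle and brain each have their own phosphorylase gene. In the endoplasmic reticulum, a transporter and a phosphatase turn glucose 6-phosphate into free glucose.

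The mRNA was measured in 3 lines of mouse embryonic fibroblasts (MEF), with 2 libraries for each line from independent RNA preparations. All of them, the reference line included, carry the deletions Cry1-/-, Cry2-/-, Per1-/-, Per2-/-, Nr1d1-/- and Nr1d2-/-, which remove the repressors of the circadian clock. The CPN-/- line had nothing added, the CPN-/- CRY1 line expressed exogenous CRY1 and the CPN-/- CRY2 line exogenous CRY2. The CRY lines were made from CPN-/- with a virus and selected with blasticidin, while CPN-/- is their parent line. No line with an empty vector was measured. Apart from this selection the study describes no treatment of these cells, which were grown in DMEM with fetal bovine serum. The exogenous proteins were driven by a viral promoter and not by the endogenous one, and each CRY line was grown from a single colony, so that its CRY protein and any other property of the line cannot be told apart. CRY1 and CRY2 repress the activator CLOCK-BMAL1, which binds E-boxes, and the comparisons address which genes differed when either protein was present.

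The libraries held between 25957409 and 36106949 counts. Cry1 had its highest level in the CPN-/- CRY1 libraries and Cry2 in the CPN-/- CRY2 libraries, while transcripts of the deleted genes were still counted in every library, with 476 or more counts each. Of 11 fibroblast markers, 7 had 100 or more counts in every library and 3, Thy1, Fap and Lum, stayed under 10 counts in every library. Their summed level was 10066 to 13454 CPM in CPN-/-, 12825 to 13008 CPM in CPN-/- CRY1 and 16067 to 16622 CPM in CPN-/- CRY2, where CPM is the count in every 1000000 counts of the library, after scaling by its TMM factor. Single fibroblast markers did not all follow this sum. Dcn counts were 23 and 24 for CPN-/-, only 6 and 1 for CPN-/- CRY1, yet 61 and 59 for CPN-/- CRY2. Pdgfra went from 92.7 and 71.9 CPM in CPN-/- down to 34.6 and 31.8 in CPN-/- CRY1. Its CPN-/- CRY2 level was 87.7 and 89.4 CPM. Pdgfrb rose in CPN-/- CRY1, from 165 and 119 CPM to 265 and 260. Its CPN-/- CRY2 level was 195 and 186 CPM. Of 22 markers of hepatocytes, skeletal muscle, macrophages, epithelium and neurons, 17 stayed under 10 counts in every library. The highest count of any of these 22 was 95. The summed neuron markers were 2.42 to 3.14 CPM in CPN-/-, 2.72 to 2.82 CPM in CPN-/- CRY2 and 0.0649 to 0.415 CPM in CPN-/- CRY1. Of the 4 neuron markers, Rbfox3, Snap25 and Tubb3 stayed under 10 counts in every library. Syt1 had 95 and 53 counts in CPN-/-, 74 and 70 in CPN-/- CRY2, and 14 and 2 in CPN-/- CRY1. The part of these markers in the results was not tested. The libraries of CPN-/- differed more from each other than those of the other lines: the SD of the log2 difference between libraries of a line was 0.44 in CPN-/-, 0.23 in CPN-/- CRY1 and 0.24 in CPN-/- CRY2. In CPN-/- longer genes were higher in replicate 1, and this difference and the exon length had a Spearman's rho of 0.68 over 12478 genes, which share their libraries. For the 8 tested enzymes the 2 CPN-/- libraries differed by −0.27 to 0.20 on the log2 scale. A lower level in every cell and fewer cells with the transcript cannot be told apart in bulk RNA.

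The promoters of the 4 enzymes whose mRNA passed the test in a comparison with CPN-/- are shown because the study asks about E-boxes. Each window runs from 250 bases before to 50 bases after the RefSeq start site on GRCm38 (mm10), and for Ugp2 the upstream of 2 windows is given. Capitals mark every match, on either strand, to CACGTG, the canonical E-box, and to ACGTG and GCGTG, the core of the hypoxia response element. CACGTG contains ACGTG on both strands.
G6pc3, chr11:102189449-102189748, forward strand: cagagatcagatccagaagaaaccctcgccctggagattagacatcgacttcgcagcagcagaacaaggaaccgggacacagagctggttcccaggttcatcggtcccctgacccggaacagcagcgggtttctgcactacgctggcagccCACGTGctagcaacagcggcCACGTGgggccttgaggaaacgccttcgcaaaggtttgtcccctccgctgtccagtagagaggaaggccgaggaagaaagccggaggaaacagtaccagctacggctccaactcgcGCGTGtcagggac
Pgm1, chr4:99929201-99929500, forward strand: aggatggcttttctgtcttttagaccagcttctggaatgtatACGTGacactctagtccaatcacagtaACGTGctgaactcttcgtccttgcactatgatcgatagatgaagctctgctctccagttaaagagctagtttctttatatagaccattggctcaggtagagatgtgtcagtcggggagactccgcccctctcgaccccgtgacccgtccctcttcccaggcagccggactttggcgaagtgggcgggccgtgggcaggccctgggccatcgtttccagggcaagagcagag
Gys1, chr7:45434589-45434888, forward strand: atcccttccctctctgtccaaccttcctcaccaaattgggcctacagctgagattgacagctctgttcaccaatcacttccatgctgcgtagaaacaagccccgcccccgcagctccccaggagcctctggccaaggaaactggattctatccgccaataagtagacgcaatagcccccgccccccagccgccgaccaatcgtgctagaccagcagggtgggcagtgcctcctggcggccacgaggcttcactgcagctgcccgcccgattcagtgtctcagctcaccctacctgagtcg
Ugp2, chr11:21371218-21371517, reverse strand: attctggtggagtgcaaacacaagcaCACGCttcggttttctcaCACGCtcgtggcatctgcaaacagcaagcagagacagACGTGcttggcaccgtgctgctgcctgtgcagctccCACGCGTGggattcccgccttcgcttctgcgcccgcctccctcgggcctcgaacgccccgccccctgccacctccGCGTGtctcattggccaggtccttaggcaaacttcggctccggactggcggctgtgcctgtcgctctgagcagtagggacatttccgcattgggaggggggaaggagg

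G6pc3 was the only one of the 9 genes with a canonical E-box in its window or windows, 12 windows in all. Its 2 E-boxes began 99 and 79 bases upstream of the start site. Over all 22271 promoter windows of the table, 7.92% held CACGTG and 0.741% held it 2 or more times. By gene, 8.99% of 18458 genes had a window with CACGTG, and 0.851% had a window with 2 or more. The Pgm1 window held 2 matches to ACGTG, 208 and 181 bases upstream, and the window of its isozyme gene Pgm2 held 1. Of all windows, 21% held this motif and 9.12% held it 2 or more times. The Ugp2 window held 5 matches to GCGTG and 1 to ACGTG, and G6pc3 held 1 GCGTG downstream of its start. The Ugp2 matches to GCGTG that begin 133 and 130 bases upstream overlap within CACGCGTG, which reads the same on both strands. Of all windows, 38.6% held GCGTG and 14.3% held it 2 or more times. Pygl and Pygb each held 1 of either core outside an E-box. None of the 3 motifs was found in the printed Gys1 window or in those of Slc37a4 and Gbe1. These are matches of letters, and binding was not measured in these files. Sites outside the windows were not searched. The E-boxes that the study reports for Pdk1 lie in its first intron, beyond the reach of such a window.

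In the CPN-/- CRY1 line, 3 of the 8 tested enzymes were lower than in CPN-/-, namely G6pc3, Pgm1 and Gys1, and 1 was higher, Ugp2. Over all tested genes, 13.1% were called lower and 11.2% higher in this comparison, at an adjusted p under 0.05. In the CPN-/- CRY2 line, the same 3 enzymes were lower, where 4.08% of all tested genes were. No enzyme was called higher by edgeR in CPN-/- CRY2, where 2.58% of all tested genes were; 1 enzyme, Ugp2, was higher at an unadjusted p under 0.05, DESeq2's Wald test called 0 and apeglm's s-values called 1. The median log2 fold change of the 8 enzymes was −0.17 for CPN-/- CRY1, and for CPN-/- CRY2 it was −0.28, against −0.01 for all tested genes in either comparison. Both comparisons use the same CPN-/- libraries, so they are not independent of each other. The study chose G6pc3 and Pgm1 as lower on these same libraries, so the counts and medians are not independent of that choice.

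**Figure D1:**
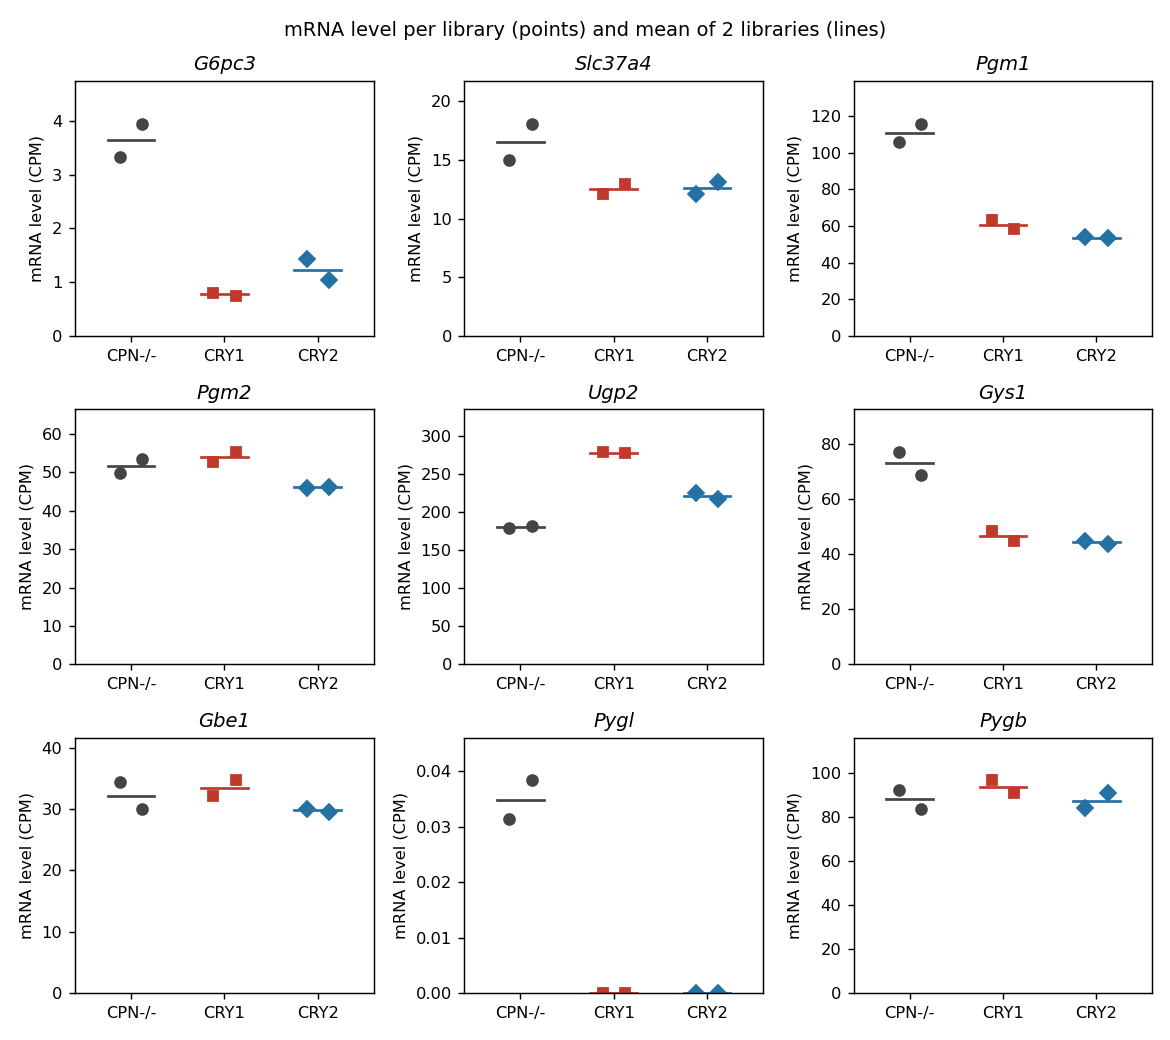
mRNA level of each of the 9 genes in CPM (vertical axis from 0, own scale per panel) in the CPN-/-, CPN-/- CRY1 (CRY1) and CPN-/- CRY2 (CRY2) lines; points are the 2 libraries of a line and the horizontal line is their mean. Both CRY lines lie below CPN-/- in G6pc3, Pgm1 and Gys1 and above it in Ugp2, while the libraries of Gbe1 and Pygb are mixed; the scale of Pygl ends below 0.05 CPM.

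G6pc3 encodes the widely expressed catalytic subunit of glucose-6-phosphatase, which releases free glucose and phosphate in the endoplasmic reticulum. The gene, whose promoter with 2 E-boxes is printed above, lies on chr11:102189699-102194081 of mm10, forward strand, and its longest coding transcript has 6 exons. Its level in CPN-/- was 3.33 and 3.95 CPM, against 0.802 and 0.746 CPM in CPN-/- CRY1, and 1.43 and 1.04 CPM in CPN-/- CRY2. The lowest CPN-/- library was above every CRY library, and both CPN-/- CRY1 libraries were below both CPN-/- CRY2 libraries. These levels rest on few reads, 103 to 106 counts per library in CPN-/- and 23 to 39 in the CRY lines. The fitted level in CPN-/- CRY1 was 21.5% of that in CPN-/-, a log2 fold change of −2.22 (SE 0.23, adjusted p = 0.0014). In CPN-/- CRY2 it was 34.1%, a log2 fold change of −1.55 (SE 0.22, adjusted p = 0.0092). The difference in CPN-/- CRY2 was not called without replicate 1 of that line (−1.80, adjusted p = 0.0535) or without its replicate 2 (−1.33, adjusted p = 0.102).

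Slc37a4 encodes the glucose-6-phosphate transporter of the endoplasmic reticulum, which feeds that phosphatase. It had 15.03 and 18.1 CPM in CPN-/-, 12.1 and 12.9 CPM in CPN-/- CRY1, and 12.1 and 13.1 CPM in CPN-/- CRY2. All 4 CRY libraries were below both libraries of CPN-/-, and the CRY lines overlapped each other. The log2 fold changes were −0.40 in CPN-/- CRY1 (SE 0.13, 95% interval −0.72 to −0.09, adjusted p = 0.0683) and −0.39 in CPN-/- CRY2 (SE 0.13, 95% interval −0.71 to −0.08, adjusted p = 0.143), so neither was called. Each of the 2 differences was called in 2 of the 15 alternatives tried. In CPN-/- CRY1, the s-values of apeglm with all 6 libraries were 1 of these. Without replicate 1 of CPN-/- the log2 fold changes were −0.53 and −0.52. The other phosphatase genes were nearly silent: G6pc1 of liver and kidney, listed as G6pc, had 0 counts in every library, and G6pc2 of pancreatic islets had 0 or 1.

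Pgm1 encodes the main phosphoglucomutase, which interconverts glucose 6-phosphate and glucose 1-phosphate and so stands at the branch between glycolysis and glycogen. The gene lies on chr4:99929451-99987294, forward strand, with 11 exons in its longest coding transcript. It had 106 and 116 CPM in CPN-/-, 63.3 and 58.1 CPM in CPN-/- CRY1, and 53.9 and 53.4 CPM in CPN-/- CRY2. The CRY libraries were well below both CPN-/- libraries, and those of CPN-/- CRY2 were the lowest. Pgm1 fell to 54.8% of its CPN-/- level in CPN-/- CRY1 (log2 fold change −0.87, SE 0.10, adjusted p = 0.0020) and to 48.4% in CPN-/- CRY2 (−1.05, SE 0.10, adjusted p = 0.0021). It was called lower in both comparisons under each of the 15 alternatives tried, with log2 fold changes of −0.93 to −0.79 and of −1.11 to −0.96. An annotated transcript of Itgb3bp, a gene of the same chromosome, shares 398 bases with Pgm1, and Itgb3bp itself was not called, at −0.18 (adjusted p = 0.371) for CPN-/- CRY1 and 0.14 (adjusted p = 0.557) for CPN-/- CRY2.

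Pgm2, whose product acts on phosphopentoses as well as on hexose phosphates, had 49.8 and 53.4 CPM in CPN-/-, 52.7 and 55.3 CPM in CPN-/- CRY1, and 45.9 and 46.3 CPM in CPN-/- CRY2. The first 2 lines overlapped, and CPN-/- CRY2 was slightly below both. The log2 fold changes of Pgm2 were 0.07 in CPN-/- CRY1 (95% interval −0.16 to 0.29, adjusted p = 0.618) and −0.16 in CPN-/- CRY2 (95% interval −0.39 to 0.06, adjusted p = 0.327). Without replicate 1 of CPN-/- the latter was called, at −0.21 (adjusted p = 0.0182). Per kb of exon, Pgm1 made up 63.2% and 63.8% of the summed Pgm1 and Pgm2 level in CPN-/-. This share was 49.3% and 46.0% in CPN-/- CRY1, and it was 48.8% and 48.3% in CPN-/- CRY2, so the CRY libraries held the pair at near equal levels and CPN-/- did not. The summed level went from 57.2 and 62.2 CPM per kb in CPN-/- to 43.9 and 43.3 in CPN-/- CRY1 and 37.8 in both libraries of CPN-/- CRY2.

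Ugp2 encodes UDP-glucose pyrophosphorylase, which makes UDP-glucose for glycogen, glycoproteins and other glucosylated products. The gene lies on chr11:21321126-21371267, reverse strand, with 10 exons in its longest coding transcript. It had 179 and 181 CPM in CPN-/-, 279 and 277 CPM in CPN-/- CRY1, and 225 and 217 CPM in CPN-/- CRY2. The 3 lines did not overlap, with CPN-/- lowest and CPN-/- CRY1 highest. Ugp2 was 1.54-fold higher in CPN-/- CRY1 (log2 fold change 0.62, SE 0.09, adjusted p = 0.0047), and this call was lost without replicate 1 (adjusted p = 0.0699) or replicate 2 (adjusted p = 0.0693) of CPN-/- CRY1, at log2 fold changes of 0.62 and 0.63. For CPN-/- CRY2 it was 0.29 on the log2 scale (SE 0.09, 95% interval 0.08 to 0.51, adjusted p = 0.113) and was not called. It was called there without replicate 1 (0.29, adjusted p = 0.000485) or replicate 2 (0.31, adjusted p = 0.000746) of CPN-/-, and with the trend on exon length removed (0.39, adjusted p = 0.0046). Of its 2870 exon bases, 78 overlap Gm12043 on the opposite strand. The 1106 tested genes of chromosome 11, Ugp2 among them, had a median log2 fold change of −0.11 in CPN-/- CRY1.

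Gys1 encodes the glycogen synthase of muscle and most other tissues, which extends the glucose chains. The gene lies on chr7:45434839-45456617, forward strand, with 16 exons. It had 77.1 and 68.8 CPM in CPN-/-, 48.4 and 44.7 CPM in CPN-/- CRY1, and 44.9 and 43.6 CPM in CPN-/- CRY2. Both CRY lines were below CPN-/- in every library and overlapped each other. Gys1 fell to 63.8% of its CPN-/- level in CPN-/- CRY1 (log2 fold change −0.65, SE 0.10, adjusted p = 0.0069) and to 60.7% in CPN-/- CRY2 (−0.72, SE 0.10, adjusted p = 0.0094). In CPN-/- CRY1 the call was lost without replicate 1 (−0.71, adjusted p = 0.068) or replicate 2 (−0.59, adjusted p = 0.0997) of that line. In CPN-/- CRY2 it was lost without replicate 1 (−0.74, adjusted p = 0.122) or replicate 2 (−0.69, adjusted p = 0.145) of that line. Of the 3678 exon bases, 310 overlap exons of Ruvbl2 on the opposite strand, and Ruvbl2 was also lower, at −0.72 in CPN-/- CRY1 (adjusted p = 0.0048) and −0.51 in CPN-/- CRY2 (adjusted p = 0.0345). The libraries were stranded but the strand setting of the counting was not given in the sources used here, so the part of Ruvbl2 reads in the Gys1 counts was not tested. The liver gene Gys2 had 5 counts in 1 library, replicate 1 of CPN-/- CRY2, and 0 in the others.

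Gbe1 encodes the glycogen branching enzyme. It had 34.5 and 29.97 CPM in CPN-/-, 32.2 and 34.7 CPM in CPN-/- CRY1, and 30.1 and 29.6 CPM in CPN-/- CRY2. The libraries of the CRY lines lay within or close to the range of CPN-/-. The log2 fold changes were 0.05 in CPN-/- CRY1 (95% interval −0.21 to 0.31, adjusted p = 0.745) and −0.11 in CPN-/- CRY2 (95% interval −0.38 to 0.15, adjusted p = 0.544). In CPN-/- CRY1 the sign turned without replicate 2 of CPN-/- (−0.040) or replicate 2 of CPN-/- CRY1 (-1.341e-05). The 420 tested genes of chromosome 16, which carries Gbe1, had a median log2 fold change of 0.27 in CPN-/- CRY1, and Gbe1 was 0.22 below that median (−0.22).

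Pygb encodes the brain form of glycogen phosphorylase and carried nearly all the phosphorylase mRNA of these cells. It had 92.4 and 83.6 CPM in CPN-/-, 96.6 and 91.1 CPM in CPN-/- CRY1, and 84.1 and 90.7 CPM in CPN-/- CRY2. All 3 lines covered much the same range. The log2 fold changes were 0.09 in CPN-/- CRY1 (95% interval −0.15 to 0.33, adjusted p = 0.517) and −0.01 in CPN-/- CRY2 (95% interval −0.25 to 0.23, adjusted p = 0.957). Without replicate 1 of CPN-/- the first was called higher at 0.17 (adjusted p = 0.039) and the second turned to 0.064. Pygl, the liver form, had 1 count in each CPN-/- library and 0 in each CRY library, where 0 counts allow up to 3, a level of 0.0830 to 0.111 CPM. Both groups are at or below that floor, so no fold is given. The muscle form Pygm had 18 and 14 counts in CPN-/-, 40 and 25 in CPN-/- CRY1, against 14 and 17 in CPN-/- CRY2, with log2 fold changes of 0.80 (SE 0.29, adjusted p = 0.0853) and 0.05 (SE 0.33, adjusted p = 0.94). Per kb of exon, Pygb was 98.5% to 99.2% of the summed level of the 3 phosphorylase genes in every library.

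**Figure D2:**
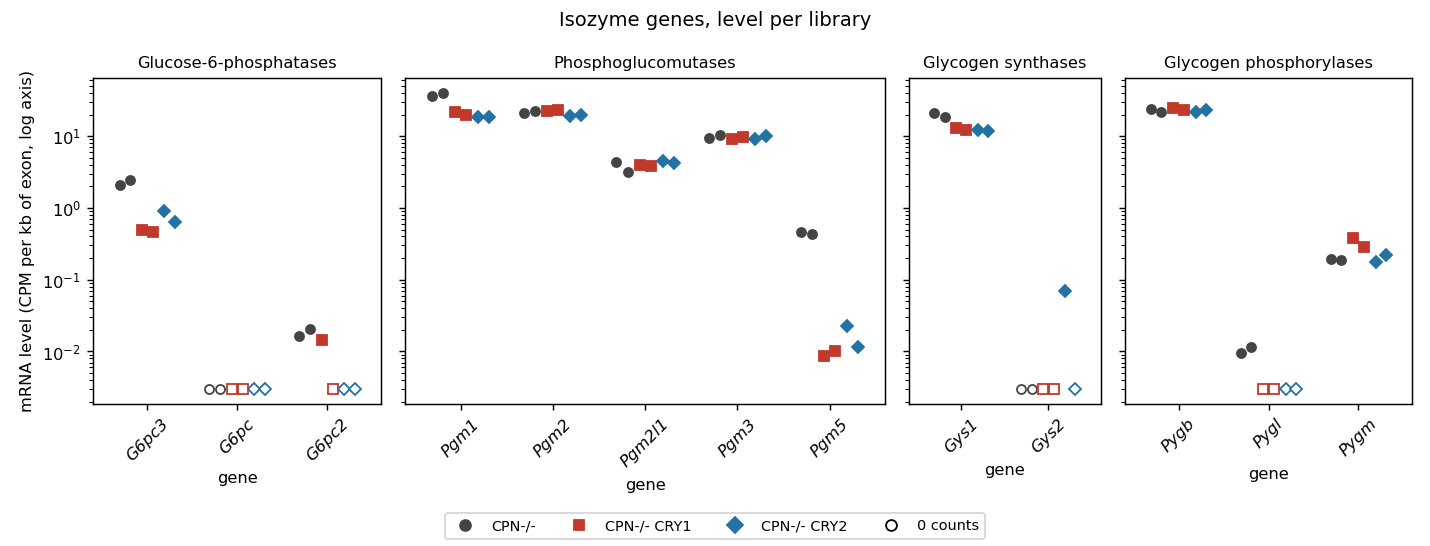
Level per library in CPM per kb of exon (log axis) of glucose-6-phosphatase, phosphoglucomutase, glycogen synthase and glycogen phosphorylase genes, with the CPN-/- libraries as circles, CPN-/- CRY1 as squares and CPN-/- CRY2 as diamonds; open symbols at the bottom are libraries with 0 counts. In each family 1 or a few genes carry the mRNA, Pygb holds 98.5% to 99.2% of the phosphorylase level, and Pgm1 is above Pgm2 in CPN-/- alone by more than 1.5-fold.

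Per kb of exon, the order of mean levels in CPN-/- was Ugp2 (62.8 ± 0.520 CPM per kb, SD, n = 2), Pgm1 (37.9 ± 2.49), Pygb (22.5 ± 1.59), Pgm2 (21.8 ± 1.09), Gys1 (19.8 ± 1.59), Gbe1 (7.55 ± 0.753), Slc37a4 (6.28 ± 0.827), G6pc3 (2.27 ± 0.273) and Pygl (0.0104 ± 0.0015). Pygb, Pgm2 and Gys1 were within their spread of one another in that line, whereas Ugp2, Pgm1 and G6pc3 stood clear of their neighbours. In CPN-/- CRY1 the order was Ugp2 (96.7 ± 0.420 CPM per kb), Pygb (24.01 ± 1.01), Pgm2 (22.8 ± 0.776), Pgm1 (20.8 ± 1.24), Gys1 (12.7 ± 0.711), Gbe1 (7.83 ± 0.414), Slc37a4 (4.75 ± 0.213) and G6pc3 (0.482 ± 0.0248), with Pygl at 0 counts. In CPN-/- CRY2 the order was the same, from Ugp2 (77.0 ± 2.11 CPM per kb) over Pygb (22.4 ± 1.19), Pgm2 (19.5 ± 0.130), Pgm1 (18.4 ± 0.129) and Gys1 (12.03 ± 0.253) to G6pc3 (0.769 ± 0.174). Pgm1 thus followed Ugp2 directly in CPN-/-, whereas Pygb and Pgm2 stood between them in both CRY lines.

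**Figure D3:**
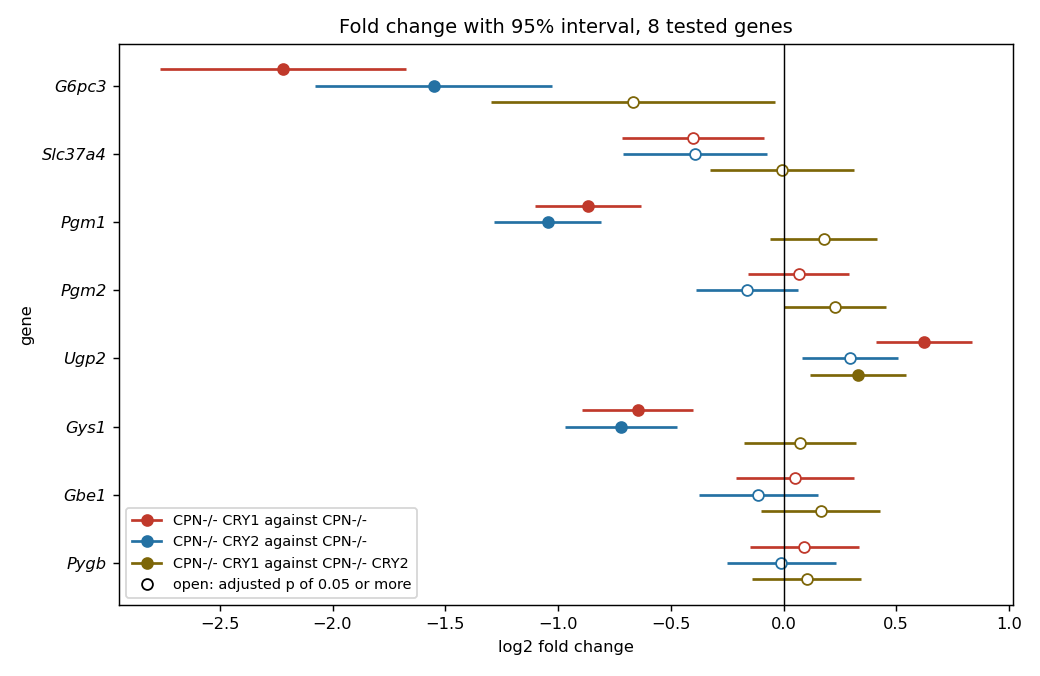
Log2 fold change (horizontal axis) of the 8 tested enzymes in the 3 comparisons, with the 95% interval as a line; filled points have an adjusted p under 0.05 over all tested genes and open points do not. G6pc3, Pgm1 and Gys1 are filled and left of 0 in both comparisons with CPN-/-, and Ugp2 is filled and right of 0 in CPN-/- CRY1 and in the direct comparison of the CRY lines.

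The CRY lines were also compared directly. None of the 8 tested enzymes was called lower by edgeR in CPN-/- CRY1 than in CPN-/- CRY2, where 8.57% of all tested genes were; 1, G6pc3, was lower at an unadjusted p under 0.05, and DESeq2 called 0 by either of its methods. Ugp2 was the 1 enzyme called higher, where 7.72% of all tested genes were, with 279 and 277 CPM in CPN-/- CRY1 against 225 and 217 CPM in CPN-/- CRY2 (log2 fold change 0.33, SE 0.09, adjusted p = 0.049). This p is close to the threshold, and the call was lost in 7 of 15 alternatives, with an adjusted p of 0.0856 with a replicate block and of 0.269 to 0.378 without 1 of the 4 CRY libraries. When the CPN-/- libraries were left out of the fit, 4 enzymes were called higher in CPN-/- CRY1: Ugp2, Pgm1 (0.18, adjusted p = 0.0146), Pgm2 (0.23, adjusted p = 0.0024) and Gbe1 (0.16, adjusted p = 0.0489). In the edgeR fit of all 6 libraries the difference in G6pc3 was −0.67 (SE 0.27, 95% interval −1.30 to −0.04, adjusted p = 0.141), so it was not called. The intervals of Slc37a4 (−0.33 to 0.31), Gys1 (−0.17 to 0.32) and Pygb (−0.14 to 0.34) all held 0. So did those of Pgm1 (−0.06 to 0.42) and Gbe1 (−0.10 to 0.43). That of Pgm2 (0.004 to 0.45) did not, but Pgm2 was not called (0.23, adjusted p = 0.156 by edgeR). At an unadjusted p under 0.05, 2 enzymes were higher in CPN-/- CRY1, Ugp2 and Pgm2. The median over the 8 enzymes was 0.13, against −0.00 over all tested genes.

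The genes whose pattern over the 6 libraries was nearest to an enzyme called in both comparisons were found by the root mean square (RMS) difference of centred log2 CPM. For G6pc3 these were Klra2 (RMS 0.11), Snhg7os (0.11) and Pla2g7 (0.12). For Pgm1 they were H2-DMb1 (0.067), Asrgl1 (0.078) and P4ha2 (0.079), and for Gys1 they were Eno1b (0.059), Ets2 (0.061) and Mmp19 (0.065). Pgm1 and Gys1 were 0.16 apart from each other, and Gbe1 and Pygb 0.081. The genes of chromosomes 4 and 7, which carry Pgm1 and Gys1, had median log2 fold changes between −0.03 and 0.02 in the comparisons with CPN-/-. G6pc3 was 2.11 below the median of chromosome 11 in CPN-/- CRY1 (−2.11) and 1.56 below it in CPN-/- CRY2 (−1.56).

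Of 54 other genes of the same pathways, kept in 6 lists, 43 were tested. The CPN-/- CRY1 line had 9 of them lower and 3 higher, whereas 6 were called, each of them lower, in the CPN-/- CRY2 line. Over all tested genes the shares were 13.1% lower and 11.2% higher for the former, and 4.08% lower and 2.58% higher for the latter. Their median log2 fold change was −0.06 and −0.07 in turn. A set of 5 genes was called in both comparisons: Gpi1, Hk2, Uap1, Pgm5 and Ppp1r3c. The study named Gpi1 from these same libraries as lower in both CRY lines, so its direction here is not independent evidence. Pgm5 and Ppp1r3c passed the filter on low counts only through the CPN-/- libraries, where they were high, so the filter favoured their calls as lower and they lend these counts no support. These counts moved with the libraries used, when a library was left out, from 2 to 24 for CPN-/- CRY1 and from 1 to 28 for CPN-/- CRY2; the highest counts came without replicate 1 of CPN-/-, for CPN-/- CRY1 also without its replicate 2, and the lowest without a library of the CRY line compared.

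The 9 genes of entry and exit of glucose 6-phosphate held 6 tested genes. Of these, 3 were lower in CPN-/- CRY1 and 2 in CPN-/- CRY2, against 13.1% and 4.08% of all tested genes in turn. Hk2, the inducible hexokinase that makes glucose 6-phosphate, had 48.6 and 39.7 CPM in CPN-/-, 26.8 and 28.4 CPM in CPN-/- CRY1 and 29.3 and 26.9 CPM in CPN-/- CRY2. The CRY lines overlapped each other and lay below CPN-/-, with log2 fold changes of −0.68 (SE 0.13) and −0.65 (SE 0.13). Gpi1, which converts glucose 6-phosphate to fructose 6-phosphate, had 280 and 285 CPM in CPN-/-, 153 and 163 CPM in CPN-/- CRY1 and 143 and 149 CPM in CPN-/- CRY2. For Gpi1 the log2 fold changes were −0.84 (SE 0.09) and −0.95 (SE 0.09), close to those of Pgm1. Pgm1 is the enzyme at the other branch from the same substrate, and the study chose both genes on these same libraries. Adpgk, an ADP-dependent glucokinase, was lower in CPN-/- CRY1 (−0.33, SE 0.10) and was not called in CPN-/- CRY2.

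**Figure D4:**
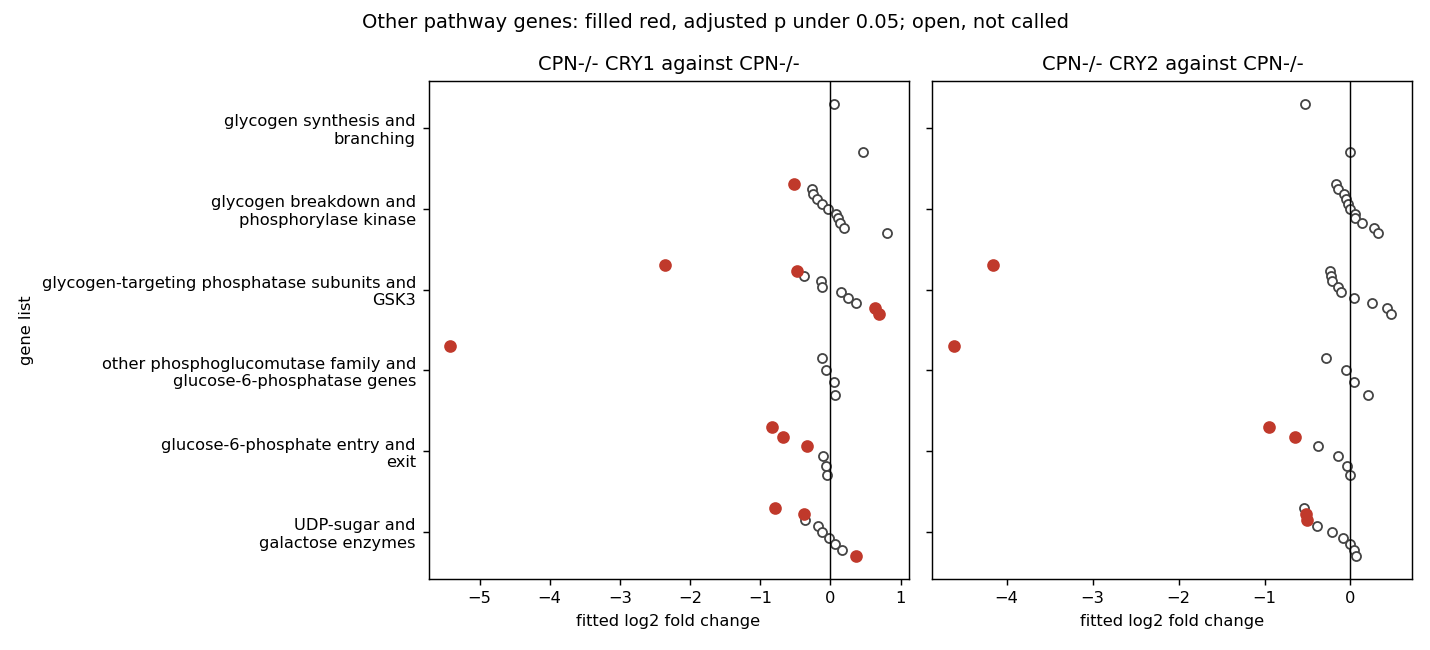
Fitted log2 fold changes (horizontal axis) of the 43 tested other pathway genes in 6 lists, in CPN-/- CRY1 (left) and CPN-/- CRY2 (right) against CPN-/-; filled points have an adjusted p under 0.05. The filled points far to the left are Pgm5 and Ppp1r3c, which have 3 or fewer counts in each CRY library, so that their plotted position is not a measured size.

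Among the other phosphoglucomutase and glucose-6-phosphatase genes, 5 of 8 were tested. Of these, 1 was called lower in CPN-/- CRY1 and in CPN-/- CRY2, where 13.1% and 4.08% of all tested genes were. Pgm5, a relative of Pgm1 found at adhesion sites and thought to lack the mutase activity, had 48 and 36 counts in CPN-/-, 1 in each CPN-/- CRY1 library, and 2 and 1 in CPN-/- CRY2, and it was tested only because it was high in CPN-/-. Over the summed libraries it was 48.6-fold higher in CPN-/- than in CPN-/- CRY1 (exact 95% counting interval 13.04 to 408) and 26.2-fold higher than in CPN-/- CRY2 (8.67 to 130). Pgm2l1, which makes glucose 1,6-bisphosphate, had log2 fold changes of 0.06 and 0.20 (adjusted p = 0.799 and 0.443). Pgm3, which acts on N-acetylglucosamine phosphate, had −0.06 and −0.05 (adjusted p = 0.688 and 0.805).

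Among the 12 genes of glycogen-targeting phosphatase subunits and glycogen synthase kinase 3, 10 were tested, of which the CPN-/- CRY1 line had 2 lower and 2 higher and the CPN-/- CRY2 line 1 lower, against 13.1%, 11.2% and 4.08% of all tested genes in turn. Ppp1r3c, a subunit that brings protein phosphatase 1 to glycogen and that was likewise tested only through CPN-/-, had 11 and 12 counts in CPN-/-, 2 and 3 in CPN-/- CRY1, against 1 and 0 in CPN-/- CRY2. Over the summed libraries it was 5.32-fold higher in CPN-/- than in CPN-/- CRY1 (exact 95% counting interval 1.98 to 17.9) and 21.5-fold higher than in CPN-/- CRY2 (3.50 to 887). Its relatives went both ways in CPN-/- CRY1, with Ppp1r3b lower (−0.48, SE 0.14) and Ppp1r3d higher (0.64, SE 0.15). Gsk3b, a kinase that phosphorylates and inhibits glycogen synthase, was higher in CPN-/- CRY1 (0.70, SE 0.19), with 112 and 73.9 CPM in the 2 CPN-/- libraries and 149 and 153 CPM in CPN-/- CRY1. Genes of its chromosome 16 had a median of 0.27 in that comparison, as given for Gbe1.

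The 11 genes of glycogen breakdown were all tested, and Gaa, the lysosomal glucosidase that digests glycogen, was lower in CPN-/- CRY1 (−0.52, SE 0.13). Gaa was the 1 gene of this list called there, where 13.1% of all tested genes were lower. In CPN-/- CRY2, 0 of the 11 were called. Of the 5 other genes of glycogen synthesis and branching, 2 were tested, Gyg1 and Stbd1. Stbd1, a protein that anchors glycogen to membranes, was higher in CPN-/- CRY1 when the CRY lines were set against each other, with 58.1 and 57.2 against 30.5 and 27.4 CPM (log2 fold change 0.99, SE 0.14). Stbd1 was named after its values were seen, because it was called in the direct comparison.

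Of the 9 genes of UDP-sugar and galactose metabolism, all tested, the CPN-/- CRY1 line had 2 lower and 1 higher and the CPN-/- CRY2 line 2 lower. The shares over all tested genes were 13.1%, 11.2% and 4.08% in turn. Uap1, which makes UDP-N-acetylglucosamine, was lower in both (−0.38, SE 0.11, and −0.50, SE 0.11). Ugdh, which oxidizes the UDP-glucose that UGP2 makes, was lower in CPN-/- CRY2 (−0.51, SE 0.09) and higher in CPN-/- CRY1 than in CPN-/- CRY2 (0.39, SE 0.09). Galactokinase, encoded by Galk1, was lower in CPN-/- CRY1 (−0.78, SE 0.15), and Galm, which interconverts the anomers of galactose, was higher there (0.36, SE 0.10).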

How the data were processed

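Per the labels and the study's methods, polyA RNA of each MEF line was made into stranded libraries and sequenced as paired ends, reads were mapped to mm10 with STAR and counted per gene with featureCounts; the annotation and the strand setting were not given in the sources used here. The deposited values are raw counts for 27179 NCBI Gene identifiers in 6 libraries, used as they are, with no further normalization by the authors. Symbols, coordinates and promoters came from RefSeq tables for GRCm38 (25275 identifiers matched). Strands, exon numbers, exon lengths (21572 identifiers) and exon overlaps came from the GENCODE mouse annotation. Similar sequence was searched among GENCODE transcripts with BLAST (matches of 150 bases or longer, 95% identity or higher).

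Counts were fitted with edgeR 4.0.16 in R 4.3.3 (TMM, filterByExpr with 10 counts in a library and 15 in total, robust quasi-likelihood, cell line as the only term, all 6 libraries), with two-sided tests and Benjamini-Hochberg adjustment over the 14069 tested genes at 0.05. The standard error is the size of the log2 fold change over the square root of F. With 2 libraries per line, p-values measure the spread between RNA preparations of 1 line, and no exact permutation of libraries can pass 0.05. CPM per kb divides by the exon length. Intervals of very low counts are exact conditional binomial ones and cover counting error only. The script was tested on simulated data.

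All 9 enzymes are named. From the 6 pathway lists, at most 4 called genes per list with the largest change against CPN-/- and the tissue paralogs are named, with later additions marked. A result on 1 listed gene is not reported here. The enzymes and lists were chosen with earlier results of these data known. The 15 alternatives were DESeq2's size factors, library size alone, no filter other than 1 count, a replicate block, only the 4 libraries compared, a threshold of 0.01, the Wald test of DESeq2 1.42.0, the s-values of apeglm 1.24.0, removal of a trend on exon length, and each library left out.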

Additional observations from a re-analysis of the deposited data

Results flagged for a closer look

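Ugp2 differed between the CRY lines under the same contrast with CPN-/-: its mRNA was higher in CPN-/- CRY1 than in CPN-/- CRY2 by 0.33 on the log2 scale (SE 0.09, adjusted p = 0.049 by edgeR's quasi-likelihood test of the difference), in both libraries of either line. The difference lost its call with a replicate block (adjusted p = 0.0856) and without any 1 of the 4 CRY libraries (0.269 to 0.378). Lines of 2 libraries are too small for a test of single libraries as outliers.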

How the results depend on the processing

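Of 360 values of the 8 enzymes under the alternatives, 315 kept their direction and side of the threshold, 15 kept the direction and lost the call, 21 gained a call and 9 changed sign. Pgm1 kept its call in both comparisons with CPN-/- under all 15 alternatives (adjusted p up to 0.0467 and 0.0485), as did G6pc3 in CPN-/- CRY1 (up to 0.0258). When a library was left out, Gbe1 in CPN-/- CRY1 ranged up to 0.16, Pygb in CPN-/- CRY2 down to −0.072 and Slc37a4 between the CRY lines down to −0.064. The 9 changes of sign were of values near 0 that were not called: Gbe1 in CPN-/- CRY1 (−0.040 without replicate 2 of CPN-/-, -1.341e-05 without replicate 2 of CPN-/- CRY1), Pygb in CPN-/- CRY2 (0.064 without replicate 1 of CPN-/-, 0.049 without replicate 1 of CPN-/- CRY2), and Slc37a4 between the CRY lines (0.0015 without the filter, 0.0020 with the Wald test, 0.0015 with apeglm, 0.038 without replicate 1 of CPN-/- CRY1, 0.050 without replicate 2 of CPN-/- CRY2).

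Enzymes called higher in CPN-/- CRY1, 1 in the main fit, were 0 to 2 when a library was left out, and those called lower in CPN-/- CRY2, 3 in the main fit, were 1 to 5. Enzymes called higher in CPN-/- CRY2, 0 in the main fit, were 1 with apeglm, 1 with the length trend removed and 0 to 1 when a library was left out. Between the CRY lines, enzymes called higher, 1 in the main fit, were 0 without the filter, 0 with the replicate block, 0 at a threshold of 0.01, 4 with only the 4 libraries, 4 with apeglm, 2 with the length trend removed and 0 to 3 when a library was left out.

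Other pathway genes called, 12 in CPN-/- CRY1, 6 in CPN-/- CRY2 and 3 between the CRY lines, became 5, 2 and 16 with only the 4 libraries, 2, 2 and 1 at a threshold of 0.01, 22, 14 and 16 with apeglm, and 21, 11 and 10 with the length trend removed. Between the CRY lines they were also 5 without the filter, 5 with the replicate block and 5 with the Wald test. When a library was left out they ranged from 2 to 24, from 1 to 28 and from 0 to 16 in turn. Leaving out a CPN-/- library raised these counts and leaving out a CRY library lowered them; a lone library is assumed to vary like the others. Replicate numbers were not taken to pair the libraries, since their deviations correlated at −0.08, 0.14 and −0.03 between lines; with the replicate block the only enzyme to change its call was Ugp2 between the CRY lines. The cause of these changes was not tested. Depth limits G6pc3, with 23 to 106 counts, and Pygl, Pgm5 and Ppp1r3c, with 0 to 48.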
